A study of Mus musculus with 6 samples.

Results

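Liver X receptors (LXRs), the genes they switch on and the machinery of cholesterol efflux were followed in macrophages sorted from mouse mammary tumours. The group comprised 9 genes, taken as the rows of the deposited FPKM table (reads scaled by gene length and by the reads counted in the library) with the symbols Nr1h3, Nr1h2, Abca1, Abcg1, Srebf1, Mylip, Apoc1, Apoc2 and Pltp, out of 35275 genes listed. Each symbol matched 1 row, and all 9 were among the 12332 genes whose mean FPKM over the libraries was at least 1 and which were therefore tested. RNA sequencing was performed on 6 libraries, each from a separate mouse. The 3 mice labelled Atg5 KO were MMTV-PyMT females with loxP-flanked Atg5 alleles and LysMcre, and the 3 labelled Atg5 WT were MMTV-PyMT females with the same loxP-flanked alleles and no Cre. All mice were of the FVB/NJ background and 65 days old. Tumours arose from the polyoma middle T oncogene under the MMTV promoter, which is active in mammary epithelium, and LysMcre is a Cre knocked into the lysozyme gene Lyz2, active in macrophages and other myeloid cells. Macrophages were sorted as CD11b+ F4/80+ cells negative for Ly6G and Ly6C. The libraries of these groups are called KO-labelled and WT-labelled below. Nothing in the labels says that littermates or shared days link a mouse of one group to a mouse of the other.

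LXRs are nuclear receptors that bind oxysterols and sterol intermediates and sit on DNA as partners of the retinoid X receptors. With ligand they switch on genes that move cholesterol out of the cell: Abca1 hands cholesterol to lipid-poor apolipoprotein and Abcg1 to high-density lipoprotein particles. In macrophages the cholesterol handled in this way comes from engulfed cells, lipoproteins and lipid droplets, and autophagy is one route by which lipid droplets reach the lysosome. How the expression of these genes compares when Atg5, which is needed to build autophagosomes, is targeted in myeloid cells is the comparison that the design allows. Only the KO-labelled mice carried LysMcre, so the targeting of Atg5 and the knock-in of Cre into Lyz2 cannot be told apart.

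Between 18770262 and 21173301 reads per library could be recovered from the FPKM values. At the level of the whole gene Atg5 went against the label, with an FPKM of 14.0, 16.6 and 17.4 in the KO-labelled libraries and 5.15, 5.11 and 5.28 in the WT-labelled ones, while Lyz2, where the Cre sits, went with it (8.43, 11.8 and 16.1 in KO-labelled and 4707, 2060 and 6571 in WT-labelled libraries). The gene-level Atg5 value does not isolate the deleted part, and directions below follow the labels. Macrophage markers were abundant in every library, and transcripts of mammary epithelium and tumour cells were present in all. Ly6g, the neutrophil gene behind one gate of the sort, and the T cell marker Cd3e stood at or near 0. S100a8, S100a9, Csf3r and Retnlg of the neutrophil list did not. Ly6c2, named for the Ly6C gate, had 5.71, 0.702 and 5.29 in the KO-labelled libraries and 0.861, 0.483 and 0.875 in the WT-labelled ones. Of 6 monocyte markers, Ly6c2 among them, 3 were higher and 3 lower in mean, all with overlapping groups. Their summed FPKM was 68.0 to 94.6 in KO-labelled and 42.3 to 68.2 in WT-labelled libraries, and their part in the values below was not tested. Of 8 T and NK cell markers only Cd4 and Klrb1c reached a mean FPKM of 1, Klrb1c only just (1.05 in KO-labelled and 1.03 in WT-labelled libraries). The summed FPKM of 6 neutrophil markers was 66.2 to 108 in KO-labelled and 90.4 to 355 in WT-labelled libraries. S100a8 and S100a9 had the highest means over all 6 libraries, but Csf3r had the highest mean in the KO-labelled ones. Csf3r was higher in KO-labelled libraries without overlap (mean 31.2, and 20.1 in WT-labelled), while the other 4 of 5 tested markers were lower in mean. Cd4 was between 15.5 and 21.5 in KO-labelled and between 4.93 and 22.3 in WT-labelled libraries. It was lowest in WT-labelled replicate 2, and which cells its RNA came from was not tested. The summed FPKM of 15 epithelial and tumour cell markers was 2990, 988 and 695 in the KO-labelled libraries and 4173, 8023 and 806 in the WT-labelled ones. For 15 macrophage markers it was 9971, 11193 and 12645 in KO-labelled and 8240, 3410 and 11804 in WT-labelled libraries. The mean log2(FPKM + 1) of each of these marker lists is used below as a tumour-cell score and as a macrophage score. WT-labelled replicate 2 therefore had the most epithelial RNA and the least macrophage RNA. All 15 epithelial markers were lower in mean in the KO-labelled libraries, with overlapping groups for each, and 13 of 15 macrophage markers were higher in mean. The markers of fibroblasts and pericytes (9 of 9), endothelial cells (7 of 7) and mast cells (5 of 5 tested) were lower in mean as well. The groups did not overlap for 8, 4 and 4 of them, where 9.41% of all tested genes were lower without overlap. In bulk RNA, fewer cells of a type and less RNA per cell cannot be told apart.

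None of the 9 genes passed the test over all genes (limma-trend, Benjamini-Hochberg adjusted p of at least 0.492). Among all tested genes 0% passed as higher and 0.00811% as lower, which was Lyz2 alone. At an unadjusted p under 0.05, 2 of the 9 (Apoc2 and Abcg1) were higher, against 4.84% of all tested genes, and none was lower, against 5.17%. The groups did not overlap for 3 of the 9, Abcg1, Apoc2 and Pltp, all of which were higher in the KO-labelled libraries, where 9.2% of all tested genes were higher without overlap and 18.6% did not overlap in either direction. None of the 9 was lower without overlap, against 9.41% of all tested genes. In mean, the KO-labelled libraries were higher for 7 of the 9, against 37.2% of all tested genes, and the median log2 difference was 0.47 over the 9 genes and -0.09 over all tested genes. Without WT-labelled replicate 2 the medians were 0.14 and -0.02, and the same 3 genes still did not overlap, against 13.8% of all tested genes that were then higher without overlap. Without WT-labelled replicate 3 the medians were 0.78 and -0.15, and 5 of the 9 were higher and 1 lower without overlap, against 17.5% and 38.7% of all tested genes. None of the 9 passed by limma-voom on the recovered reads either. With library weights estimated gene by gene, chosen after seeing the data, most weight fell on WT-labelled replicate 1, and Abcg1, Apoc2 and Pltp passed (limma adjusted p = 0.0302, 0.0298 and 0.0421), as did 1054 higher and 1461 lower genes in all. The ranges of adjusted p given below are over 18 alternatives without such weights.

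**Figure D1:**
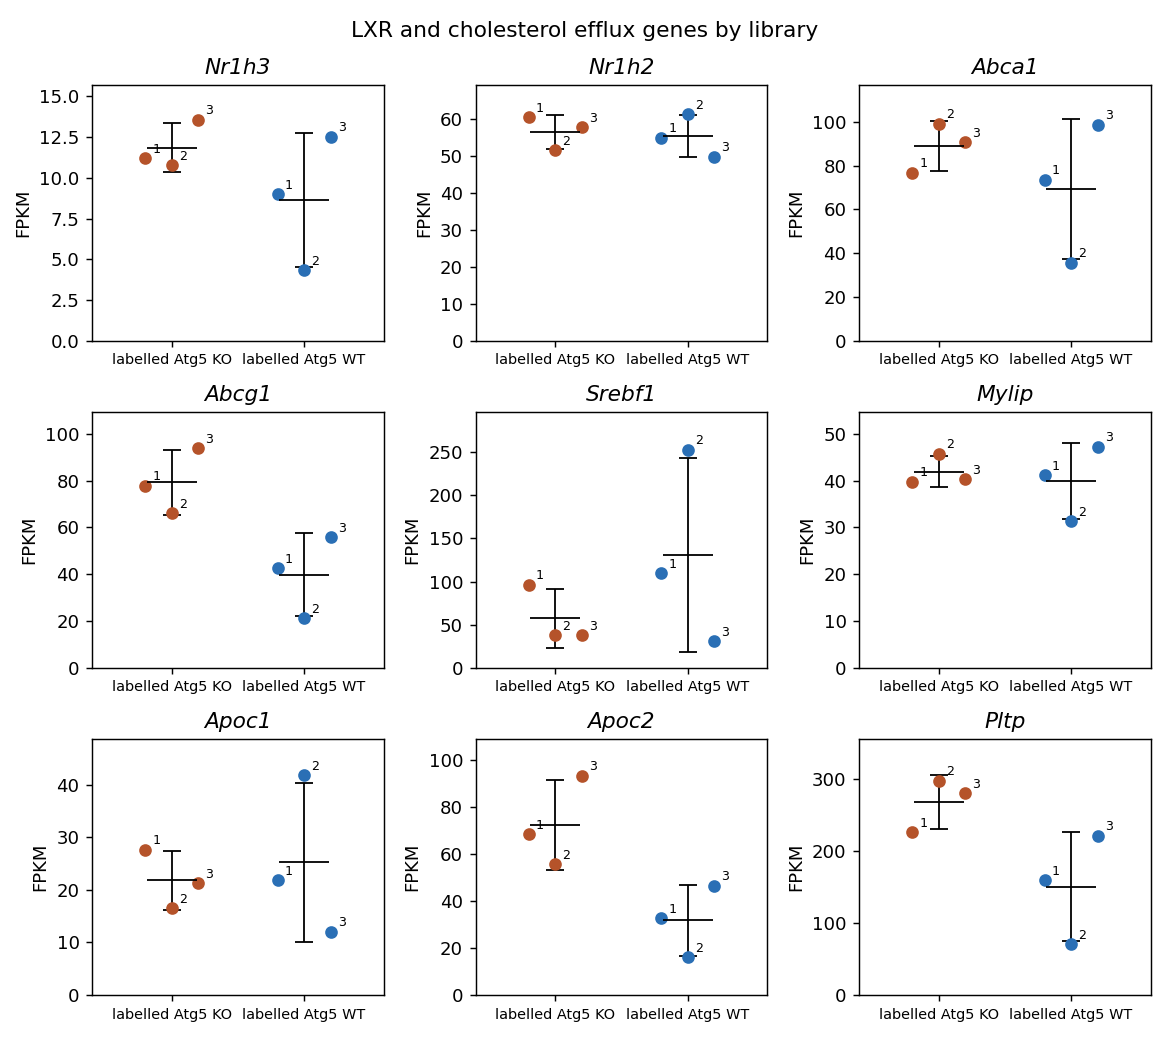
FPKM of each of the 9 genes (vertical axes from 0) in every library, KO-labelled on the left and WT-labelled on the right. Points are libraries with their replicate numbers, and black bars are the mean and SD over 3 libraries. Abcg1, Apoc2 and Pltp do not overlap between the groups, and WT-labelled replicate 2 is the lowest library for Nr1h3, Abca1, Abcg1, Mylip, Apoc2 and Pltp and the highest for Srebf1, Apoc1 and Nr1h2.

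The receptor genes differed from each other in level more than between the groups. Nr1h3 (chromosome 2, 91184061 to 91202834, mm10) encodes LXR alpha, the form typical of macrophages, liver and fat. It stood at an FPKM of 11.2, 10.8 and 13.6 in the KO-labelled libraries and 8.98, 4.33 and 12.5 in the WT-labelled ones. The groups overlapped, with WT-labelled replicate 2 the lowest library and KO-labelled replicate 3 the highest. The log2 difference was 0.51 with a 95% interval from -0.34 to 1.37 (limma-trend adjusted p = 0.541). It was 0.14 without WT-labelled replicate 2, 0.08 once the tumour-cell score was a covariate and 0.03 with the macrophage score. Nr1h2 (chromosome 7, 44549616 to 44553951) encodes LXR beta, which is made in most cell types. Its FPKM was 60.5, 51.5 and 57.8 in the KO-labelled libraries and 55.0, 61.3 and 49.8 in the WT-labelled ones. It was the steadiest of the 9 genes, with a 1.23-fold range over all 6 libraries and a log2 difference of 0.03 (95% interval -0.26 to 0.32, limma-trend adjusted p = 0.894). Its groups overlapped on the deposited scale, but not under median-ratio scaling, where it was higher by 0.12 in the KO-labelled libraries and did not pass.

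Per length, Nr1h3 was below Nr1h2 in every library. The FPKM ratio of Nr1h3 to Nr1h2 was 0.185, 0.209 and 0.235 in the KO-labelled libraries and 0.163, 0.0707 and 0.252 in the WT-labelled ones. The libraries labelled Atg5 WT held both the lowest and the highest ratio. The difference in log2(FPKM + 1) between the receptor genes was higher by 0.48 in the KO-labelled libraries (SE 0.488, two-sided exact permutation p = 0.5, where the smallest possible is 0.1), and by 0.03 without WT-labelled replicate 2.

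The cholesterol transporter genes Abca1 and Abcg1 were both lowest in WT-labelled replicate 2, and the groups overlapped for Abca1 but not for Abcg1. Abca1 (chromosome 4, 53030787 to 53159895), which loads cholesterol and phospholipid onto lipid-poor apolipoprotein A-I, had an FPKM of 76.7, 99.2 and 90.6 in the KO-labelled libraries and 73.6, 35.5 and 98.6 in the WT-labelled ones. Its groups overlapped, and only WT-labelled replicate 2 stood clearly below the others. The log2 difference was 0.47 (95% interval -0.46 to 1.39, limma-trend adjusted p = 0.569), 0.05 without WT-labelled replicate 2 and -0.01 once the tumour-cell score was a covariate. Abcg1 (chromosome 17, 31057698 to 31115777), a half-transporter that passes sterol to lipoprotein particles, had 77.8, 66.1 and 93.9 in the KO-labelled libraries and 42.6, 21.0 and 55.9 in the WT-labelled ones. Every KO-labelled library was above every WT-labelled library, and the mean FPKM was 1.99-fold higher (79.3 ± 14.0 in KO-labelled and 39.8 ± 17.6 in WT-labelled libraries, SD, n = 3 each). The log2 difference of 1.07 (SE 0.36) did not pass (limma-trend adjusted p = 0.492, with 0.128 to 0.906 over 18 alternatives). It was 0.67 without WT-labelled replicate 2, 0.64 once the tumour-cell score was a covariate and 0.58 with the macrophage score as a covariate.

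Srebf1 and Mylip are LXR targets with other duties than efflux. Srebf1 (chromosome 11, 60199089 to 60222581) encodes SREBP-1, the transcription factor of fatty acid synthesis, and its short form SREBP-1c is the one that LXRs induce. Its FPKM was 96.3, 37.6 and 37.8 in the KO-labelled libraries and 110, 253 and 30.4 in the WT-labelled ones. The order of the libraries was that of the summed epithelial markers, except that the lowest 3 libraries changed places, and Srebf1 varied most of the 9 genes, 8.32-fold from the lowest to the highest library. The log2 difference of -0.87 had a 95% interval from -2.87 to 1.14 (limma-trend adjusted p = 0.603), and once the tumour-cell score was a covariate the difference was 0.38. FPKM covers the whole gene, so the forms of SREBP-1 were not separated. Mylip (chromosome 13, 45389742 to 45412019), a ubiquitin ligase that marks lipoprotein receptors for degradation, had 39.7, 45.8 and 40.3 in KO-labelled and 41.2, 31.2 and 47.2 in WT-labelled libraries. Its groups overlapped, and the log2 difference of 0.09 (95% interval -0.33 to 0.50, limma-trend adjusted p = 0.795) became -0.07 without WT-labelled replicate 2.

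The promoters of Abca1 and Srebf1 are shown because they hold close copies of one sequence while the levels of these genes ran in opposite directions across the libraries. LXR and its partner bind direct repeats, that is 2 copies of AGGTCA with any 4 bases between them. Promoter windows from RefSeq (GRCm38.p6, the same assembly as mm10) were found for 7 of the 9 genes, in 10 windows, and not for Abcg1 and Apoc1. The 250 bases before the start were searched on both strands, allowing 3 mismatches among the 12 letters compared. Such a repeat was present in 20.9% of all 27025 genes with a window and in 2 of the 7, Abca1 and Srebf1. The capitals mark the 16 bases of the repeat, which on the gene's own strand reads as the reverse complement.
Abca1, chr4:53159896-53160145, minus strand: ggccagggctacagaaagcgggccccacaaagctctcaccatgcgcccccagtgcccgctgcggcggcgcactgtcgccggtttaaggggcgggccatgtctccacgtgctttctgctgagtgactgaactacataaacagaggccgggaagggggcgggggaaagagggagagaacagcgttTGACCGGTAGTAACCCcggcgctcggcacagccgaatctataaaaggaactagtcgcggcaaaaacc
Srebf1, chr11:60210472-60210721, minus strand: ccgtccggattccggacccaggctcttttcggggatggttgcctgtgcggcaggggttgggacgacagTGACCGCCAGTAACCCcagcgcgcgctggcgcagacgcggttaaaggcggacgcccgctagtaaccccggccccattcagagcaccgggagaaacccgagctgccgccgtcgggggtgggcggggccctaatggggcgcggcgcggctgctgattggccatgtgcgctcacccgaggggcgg
The repeats lay at positions -67 to -52 of Abca1 and -182 to -167 of Srebf1 relative to the start. They were identical at 14 of 16 positions. With Abca1 and Srebf1 included, 5 genes in all (0.0185%) had a stretch that close to the Abca1 repeat in their windows. The distance was chosen after the sites were seen. The Srebf1 window is the one at the start nearest the gene's 3′ end of its 3 windows, and the other windows held no such repeat. A match of letters is a description, and binding was not measured here.

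The apolipoprotein genes Apoc1 and Apoc2 lie in one cluster on chromosome 7 and behaved differently. Apoc2 (19671579 to 19681423) encodes apolipoprotein C-II, the cofactor of lipoprotein lipase. Its FPKM was 68.3, 55.6 and 93.2 in the KO-labelled libraries and 32.6, 15.9 and 46.3 in the WT-labelled ones, from between 222 and 1339 reads. The groups did not overlap, and the mean was 2.29-fold higher (72.3 ± 19.1 in KO-labelled and 31.6 ± 15.2 in WT-labelled libraries, SD, n = 3 each), the highest fold among the 7 of the 9 genes with a higher mean. On the log2 scale this was 1.26 (SE 0.41, limma-trend adjusted p = 0.492, with 0.128 to 0.906 over 18 alternatives), 0.85 without WT-labelled replicate 2 and 0.76 once the tumour-cell score was a covariate. Apoc4, which overlaps Apoc2 on the same strand but shares no exon base with it in GENCODE M21, had between 6 and 33 reads. Apoc1 (19689484 to 19692658) encodes apolipoprotein C-I, an inhibitor of lipoprotein lipase and of lipoprotein uptake. It stood at 27.6, 16.4 and 21.2 in KO-labelled and 21.8, 41.8 and 12.0 in WT-labelled libraries. The WT-labelled libraries held both the highest and the lowest value. Its log2 difference was -0.06 (95% interval -1.17 to 1.04, limma-trend adjusted p = 0.949), 0.37 without WT-labelled replicate 2 and 0.03 under median-ratio scaling.

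Pltp (chromosome 2, 164839518 to 164857711) encodes the secreted phospholipid transfer protein, which remodels high-density lipoprotein, and had the highest mean level per length of the 9 genes. Its FPKM was 225, 297 and 280 in the KO-labelled libraries and 159, 70.5 and 221 in the WT-labelled ones. The groups did not overlap, but KO-labelled replicate 1 and WT-labelled replicate 3 lay side by side. The mean was 1.78-fold higher (268 ± 37.5 in KO-labelled and 150 ± 75.5 in WT-labelled libraries, SD, n = 3 each), with a log2 difference of 0.97 and an SE of 0.42 (limma-trend adjusted p = 0.492, with 0.128 to 0.906 over 18 alternatives). The difference was 0.50 without WT-labelled replicate 2, 0.42 once the tumour-cell score was a covariate and 0.37 with the macrophage score. Under median-ratio scaling the groups of Pltp overlapped. Pltp shares 495 of its 2562 exon bases (19.3%) with the cathepsin A gene Ctsa on the opposite strand in GENCODE M21. Ctsa had an FPKM of 265, 296 and 329 in the KO-labelled libraries and 228, 116 and 303 in the WT-labelled ones. Whether strand was used in the counting is not given, so reads of the shared bases cannot be told apart.

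**Figure D2:**
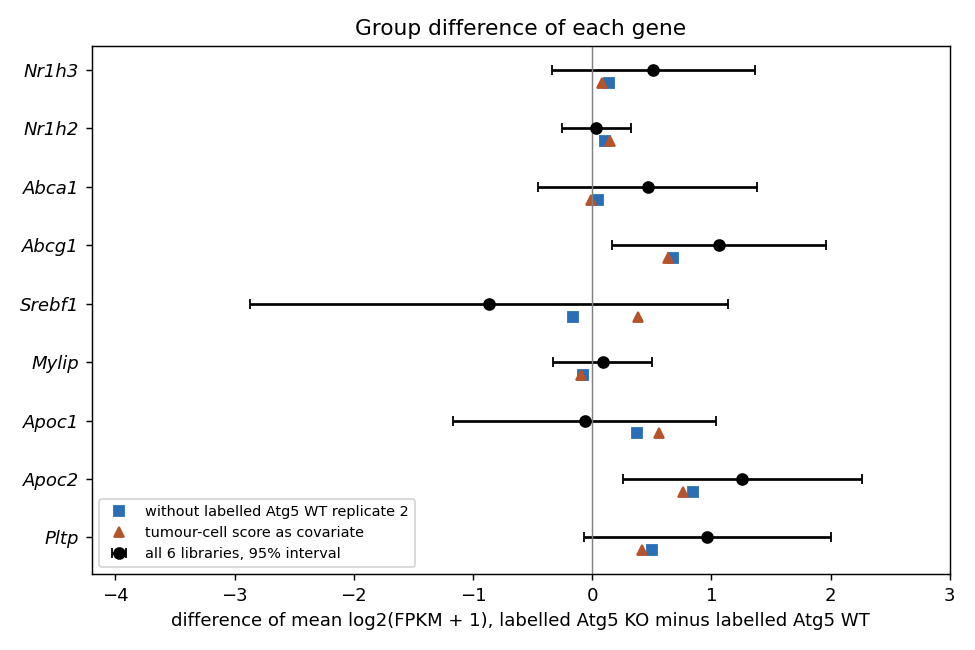
KO-labelled minus WT-labelled mean of log2(FPKM + 1) on the horizontal axis, for each of the 9 genes. Black points and bars are the fit to all 6 libraries with its 95% interval, squares the fit without WT-labelled replicate 2 and triangles the fit that holds the tumour-cell score as covariate. Nr1h3, Nr1h2, Abcg1, Apoc2 and Pltp stay above 0 in all 3 fits, and Srebf1 lies at -0.87, -0.16 and 0.38.

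Across the 6 libraries the genes fell into profiles that followed the marker scores to different degrees. Likeness was measured as the root mean square difference of log2(FPKM + 1) after each gene was centred on its own mean. Abcg1 and Apoc2 were the closest pair, 0.12 log2 units apart, followed by Abca1 and Nr1h3 at 0.15 and Abcg1 and Pltp at 0.22. Srebf1 and Apoc2 were the farthest apart, at 1.76. In WT-labelled replicate 2, the centred levels of Nr1h3, Abca1, Abcg1, Apoc2 and Pltp were between -1.01 and -1.45, beside -1.30 for the macrophage score and 2.03 for the tumour-cell score. Those of Srebf1 and Apoc1 in the same library were 1.84 and 0.91. The points share their libraries, and the part of tumour-cell RNA in these profiles was not tested for any single gene beyond the fits given above.

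**Figure D3:**
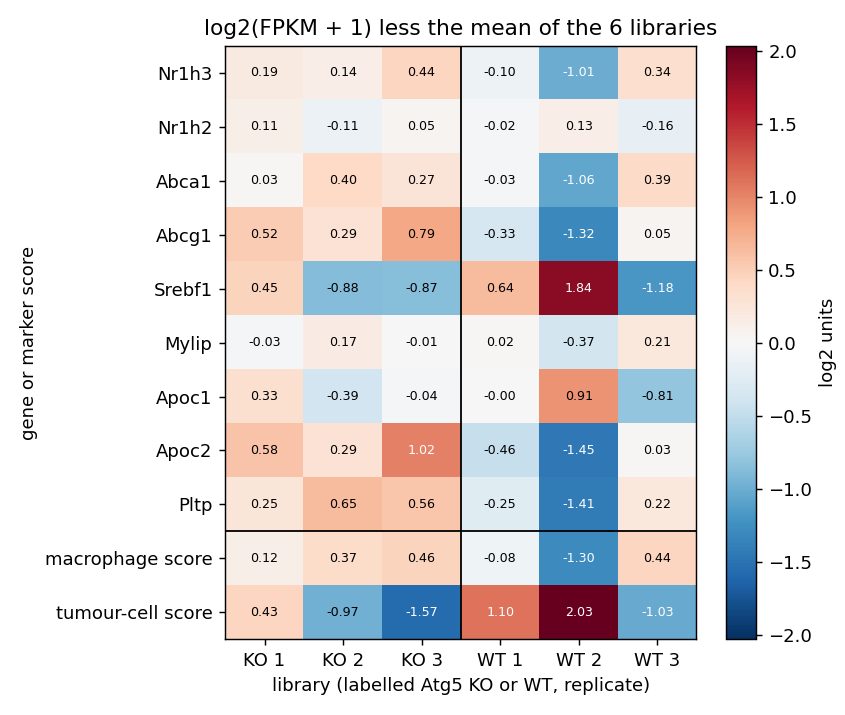
Levels of the 9 genes and of 2 marker scores (rows) in the 6 libraries (columns), each as log2(FPKM + 1), or the mean of that over the marker list, less its mean over the libraries. Nr1h3, Abca1, Abcg1, Apoc2 and Pltp are lowest where the macrophage score is lowest, at -1.30 in WT-labelled replicate 2, and Srebf1 is highest there, at 1.84.

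Scaling within a library set the genes against other macrophage transcripts. Less the macrophage score, Pltp was higher by 0.34 (SE 0.062) and Apoc2 by 0.63 (SE 0.215) in the KO-labelled libraries. The groups did not overlap for these 2 genes, each with a two-sided exact permutation p of 0.1, the smallest possible, and 0.45 after adjustment over the 9 genes. Neither gene overlapped before scaling. The 9 genes were chosen with earlier results of these data known, which the adjustment does not cover, so these p values are descriptive only. Of all tested genes 0.868% were higher and 8.34% lower without overlap on this scale. Abcg1 was higher by 0.44 (SE 0.184) with overlapping groups (exact permutation p = 0.2), since KO-labelled replicate 2 at -2.25 lay below WT-labelled replicate 2 at -2.20. Abca1 was lower by 0.16 (SE 0.104) on this scale, and Nr1h3 by 0.12 (SE 0.149), both with overlapping groups (exact permutation p = 0.2 and 0.6). The rest of the 9 genes were lower by more, again with overlapping groups. The differences were -1.496 (SE 1.474) for Srebf1, -0.693 (SE 1.045) for Apoc1, -0.596 (SE 0.615) for Nr1h2 and -0.542 (SE 0.357) for Mylip. Their exact permutation p was 0.4, 0.7, 0.6 and 0.3.

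Ratios to Abca1, a scale chosen after the values were seen, were nearly constant among the WT-labelled libraries for the genes that followed it. That constancy is implied by following Abca1 and is no separate result. The FPKM ratio of Abcg1 to Abca1 was 1.01, 0.667 and 1.04 in the KO-labelled libraries and 0.579, 0.593 and 0.566 in the WT-labelled ones. For Apoc2 the ratio was 0.890, 0.560 and 1.03 in KO-labelled and 0.443, 0.449 and 0.470 in WT-labelled libraries. For Pltp it was 2.94, 3.00 and 3.09 in KO-labelled and 2.16, 1.99 and 2.24 in WT-labelled libraries. The groups did not overlap in any of these 3 ratios, which were higher in the KO-labelled libraries although WT-labelled replicate 2 differed from the others of its group in all 4 genes. Each had a two-sided exact permutation p of 0.1 on the log2 scale, the smallest possible, and 0.267 after adjustment over the 8 ratios computed. The groups of these 3 genes did not overlap before scaling either. The adjustment does not cover the choice of Abca1 as the scale, so these p values are descriptive only. On this scale 1.6% of all other tested genes were higher and 7.57% lower without overlap. The ratio of Nr1h3 to Abca1 overlapped, at 0.146, 0.109 and 0.150 in KO-labelled and 0.122, 0.122 and 0.127 in WT-labelled libraries. The remaining ratios overlapped too and were lower in mean log2 in the KO-labelled libraries. Among WT-labelled libraries they ranged from 0.308 to 7.13 for Srebf1, 0.122 to 1.18 for Apoc1, 0.505 to 1.73 for Nr1h2 and 0.478 to 0.880 for Mylip. KO-labelled replicate 2 had the lowest ratio of its group for Abcg1, Apoc2, Nr1h3, Nr1h2, Srebf1 and Apoc1, but not for Pltp and Mylip. Abca1, by which all of these are divided, was highest of its group in that library (76.7, 99.2 and 90.6 in the KO-labelled libraries). That library also had the most dendritic cell marker RNA, with a sum over 7 genes of 23.8, 82.1 and 22.4 in the KO-labelled libraries and 54.4, 30.8 and 69.0 in the WT-labelled ones, led by Cd209a and Ccr7. None of the 7 markers was at 0 in every library, and their part in the ratios was not tested.

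**Figure D4:**
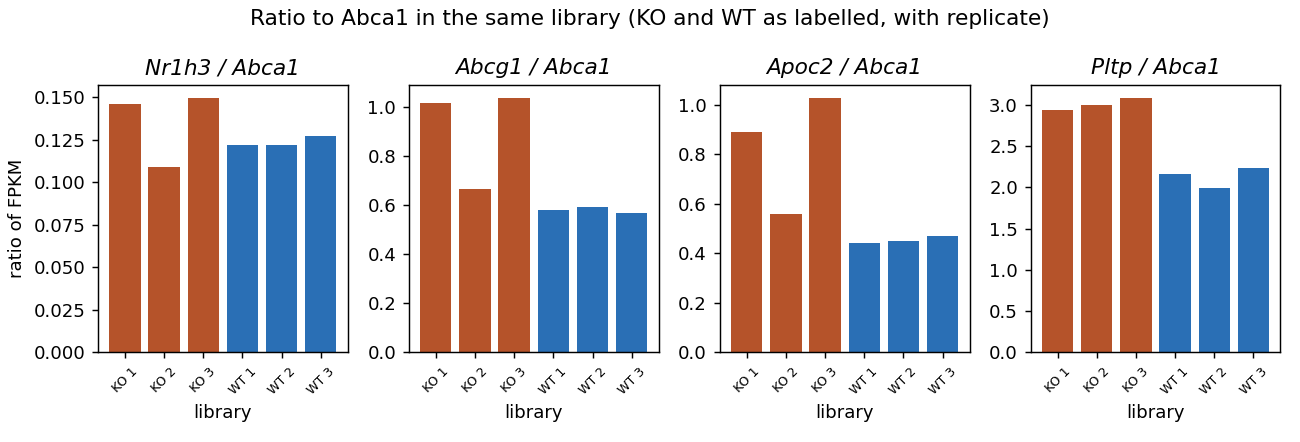
FPKM of Nr1h3, Abcg1, Apoc2 and Pltp divided by that of Abca1 in the same library (vertical axes from 0), with KO-labelled libraries left of WT-labelled ones. Each bar is 1 library, and the Pltp ratio is between 2.94 and 3.09 in the KO-labelled libraries and between 1.99 and 2.24 in the WT-labelled ones.

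By mean FPKM over the 6 libraries the order was Pltp (209), Srebf1 (94.1), Abca1 (79.0), Abcg1 (59.6), Nr1h2 (56.0), Apoc2 (52.0), Mylip (40.9), Apoc1 (23.5) and Nr1h3 (10.2). No step of that order held in all 6 libraries. Pltp was above Srebf1 in 5 of 6 libraries, Mylip above Apoc1 in 5 of 6 and Apoc1 above Nr1h3 in 5 of 6. Srebf1 and Abca1, and likewise Nr1h2 and Apoc2, exchanged places in 3 of 6. Apoc2 was above Mylip and Nr1h2 in all 3 libraries labelled Atg5 KO, and below Mylip and Nr1h2 in all 3 labelled Atg5 WT.

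Other genes of the pathway were read from lists chosen from textbook knowledge, and no gene of any list passed over all genes (limma-trend). Among LXR partners and coregulators 11 of 12 were tested, with 6 higher and 5 lower and a median log2 difference of 0.05. The coactivator gene Ncoa3 had an FPKM of 26.8 ± 2.24 in the KO-labelled libraries and 19.5 ± 2.09 in the WT-labelled ones, and the retinoid X receptor gene Rxra 30.3 ± 0.846 in KO-labelled and 26.0 ± 1.47 in WT-labelled libraries (SD, n = 3 each), both without overlap. For both the limma-trend adjusted p was 0.492. They were named for a small p, and in the list 2 of 11 were higher and 1 lower without overlap, against 9.2% and 9.41% of all tested genes.

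Of 17 other LXR target genes 14 were tested, 7 of them higher and 7 lower, with a median of 0.02. The macrophage secreted protein gene Cd5l was at 33.1, 12.5 and 43.0 in the KO-labelled libraries and 6.18, 2.06 and 8.37 in the WT-labelled ones, a log2 difference of 2.21. Smpdl3a, a phosphodiesterase gene induced by LXR ligands, had 65.2 ± 6.39 in KO-labelled and 43.9 ± 3.66 in WT-labelled libraries, and the lipoprotein lipase gene Lpl 70.6 ± 7.85 in KO-labelled and 41.7 ± 13.1 in WT-labelled libraries. These 3 genes, named for the smallest p in the list, were higher without overlap and did not pass (limma-trend adjusted p = 0.492 for each). They were the only ones of the 14 higher without overlap, against 9.2% of all tested genes. The fatty acid synthesis targets that Srebf1 also drives were among the 7 lower genes, with Fasn at 15.0, 8.38 and 7.21 in KO-labelled and 19.5, 34.1 and 9.47 in WT-labelled libraries and Scd1 at 58.1, 17.1 and 14.7 in KO-labelled and 47.2, 126 and 10.3 in WT-labelled libraries. Fasn and Scd1 are named after their values were seen. Like Srebf1, they were highest in WT-labelled replicate 2, the library with the most epithelial marker RNA, and the part of that RNA was not tested.

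Among 9 enzymes that make or remove sterol ligands 6 were tested, with a median of -0.13, 2 higher and 4 lower. Cyp27a1, which makes 27-hydroxycholesterol, an LXR ligand, had an FPKM of 37.8, 40.7 and 50.0 in the KO-labelled libraries and 19.7, 10.5 and 27.6 in the WT-labelled ones. The groups did not overlap, and the log2 difference of 1.20 (SE 0.34) did not pass (limma-trend adjusted p = 0.492). Cyp27a1 was named for a small p. Among the 6 tested 1 was higher and 0 lower without overlap, against 9.2% and 9.41% of all tested genes. The sterol sulfotransferase gene Sult2b1 had 1.62 ± 0.392 in KO-labelled and 2.11 ± 0.286 in WT-labelled libraries, with overlap.

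The 15 other genes of cholesterol efflux and trafficking had 7 higher and 8 lower members and a median of -0.08. Lipa, the lysosomal acid lipase that frees cholesterol from its esters, had an FPKM of 134, 136 and 141 in the KO-labelled libraries and 111, 108 and 111 in the WT-labelled ones. Its libraries agreed closely within each group, and it differed from Abca1 in that WT-labelled replicate 2 was not set apart. The sterol carrier gene Stard3 was likewise higher without overlap (37.2 ± 2.17 in KO-labelled and 29.7 ± 1.91 in WT-labelled libraries), and Gramd1a, which moves cholesterol from the plasma membrane to the endoplasmic reticulum, was lower without overlap (54.4 ± 6.76 in KO-labelled and 71.2 ± 3.87 in WT-labelled libraries). For Lipa, Stard3 and Gramd1a, named for the smallest p in the list, the limma-trend adjusted p was 0.492. Of the 15 genes 3 were higher and 2 lower without overlap, against 9.2% and 9.41% of all tested genes.

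The mean of all 6 genes of SREBP processing was lower in the KO-labelled libraries, where 37.2% of all tested genes were higher in mean. Their median of -0.28 was -0.12 with either the tumour-cell or the macrophage score as a covariate. Srebf2, the SREBP gene of cholesterol synthesis, had 19.9, 16.8 and 13.2 in KO-labelled and 26.3, 31.0 and 22.3 in WT-labelled libraries, and was lower without overlap (log2 difference -0.65, limma-trend adjusted p = 0.492). Of these 6 genes 0 were higher and 1 was lower without overlap, against 9.2% and 9.41% of all tested genes. Insig2, a retention factor of SREBP, and Mbtps1, a protease that cleaves it, overlapped (6.97 ± 0.784 in KO-labelled and 9.92 ± 2.37 in WT-labelled libraries for Insig2, and 20.8 ± 1.19 in KO-labelled and 26.6 ± 7.90 in WT-labelled libraries for Mbtps1). Of 8 lipoprotein receptors and Mylip partners 2 were higher and 6 lower, with a median of -0.21. Ube2d1, a ubiquitin-conjugating enzyme that works with Mylip, had 9.38 ± 1.16 in KO-labelled and 7.88 ± 0.18 in WT-labelled libraries, without overlap, and the deubiquitinase gene Usp2 4.79 ± 0.904 in KO-labelled and 6.95 ± 1.84 in WT-labelled libraries, with overlap. In this list of 8 genes 1 was higher and 2 were lower without overlap, against 9.2% and 9.41% of all tested genes. Of 10 lipoprotein lipases and remodelling genes 6 were tested, 3 higher and 3 lower, with a median of 0.21. Lpl was given above. Gpihbp1, the endothelial anchor of Lpl, had 0.967 ± 0.69 in KO-labelled and 3.62 ± 2.43 in WT-labelled libraries, and the apolipoprotein gene Apoc4 2.80 ± 0.708 in KO-labelled and 1.63 ± 0.884 in WT-labelled libraries, both with overlap. The summed FPKM of 7 endothelial markers was 23.8, 19.4 and 11.8 in the KO-labelled libraries and 55.4, 78.2 and 28.8 in the WT-labelled ones, with 7 of 7 lower in mean and none at 0. Their part in the Gpihbp1 values was not tested.

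**Figure D5:**
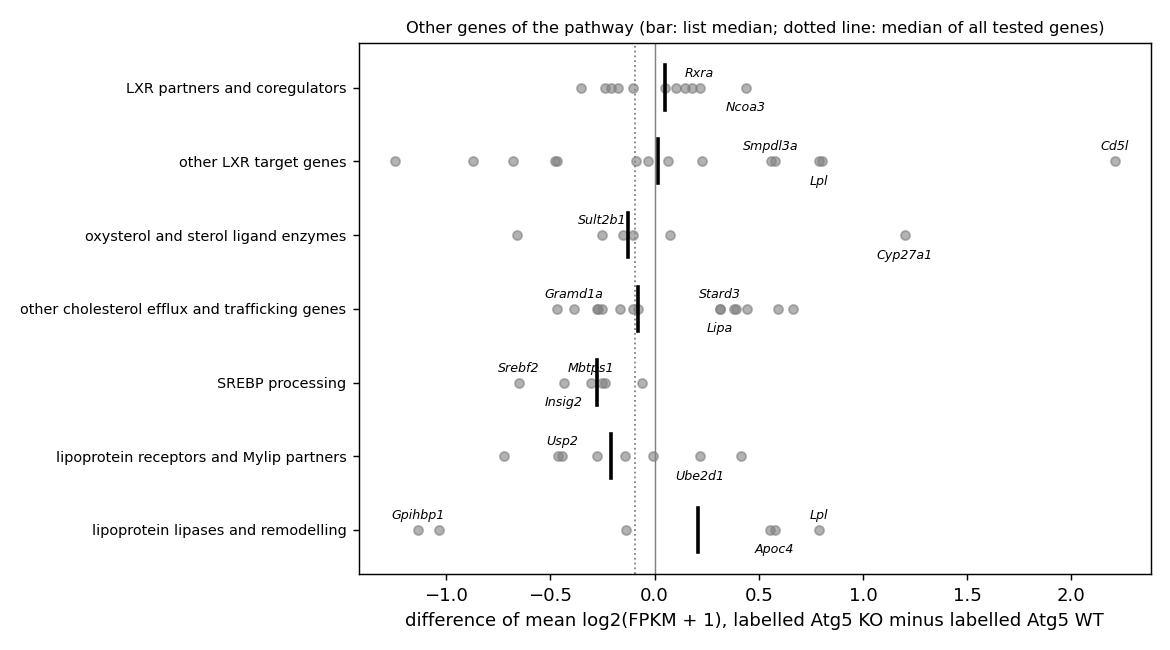
KO-labelled minus WT-labelled mean of log2(FPKM + 1) on the horizontal axis, for the tested genes of 7 lists of the pathway. Grey points are genes, black bars the list medians between -0.28 and 0.21, and the dotted line the median of all tested genes at -0.09. Cd5l at 2.21 and Cyp27a1 at 1.20 lie farthest to the right.

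The most similar profiles among all tested genes, by the same root mean square difference over the 6 libraries, are given for Abca1, Abcg1, Nr1h3 and Mylip, the genes for which the rule on named genes provides. Nearest to Abca1 were Dtx4 (0.028), Dpep2 (0.036) and the ferritin light chain gene Ftl1 (0.040). Ftl1 had an FPKM of 6723, 8904 and 8250 in the KO-labelled libraries and 6255, 3046 and 8665 in the WT-labelled ones. Nearest to Abcg1 were Fgd2 (0.057), Kcnj10 (0.059) and the MHC class II gene H2-Ab1 (0.062), which had 1540, 1467 and 1920 in KO-labelled and 916, 433 and 1223 in WT-labelled libraries. Abca1 and Abcg1 had no nearest gene in common, which follows from their own distance of 0.36 and is no separate result. Nr1h3 was nearest to P4ha1 (0.033), Apbb1ip (0.046) and the syndecan gene Sdc3 (0.051), and Mylip to Dek (0.024), Mtmr14 (0.024) and Map3k14 (0.027). These values describe 6 libraries that share the same differences in cell content.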

How the data were processed

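RNA was sequenced from macrophages of 6 mice, 3 labelled Atg5 KO and 3 labelled Atg5 WT, and the titles give the group and number of each mouse. The authors deposited FPKM values for 35275 genes, with 1 column per mouse and the gene length used, per the file headers. The submitters' processing notes name STAR, CASAVA and mm10 and give no versions. No source used here gives the counting program, its strand setting or the annotation release. FPKM times gene length gave whole reads for 100% of values in every library, within 0.01 read, so 1 read in a gene of 1 kb was worth an FPKM between 0.0472 and 0.0533. Replicates are separate mice.

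On the log2(FPKM + 1) scale, limma 3.58.1 (R 4.3.3) compared the groups with no other term and a mean-variance trend (limma-trend) in all 12332 genes whose mean FPKM reached 1. The test was two-sided, and p was Benjamini-Hochberg adjusted over these genes with a threshold of 0.05. Fold changes on this scale understate the change of low genes. The fit was tested on simulated counts before use. Single values were compared by exact permutation over libraries. The marker scores are means of log2(FPKM + 1) over the marker lists, and the macrophage list does not hold Lyz2. The 9 genes and all lists were chosen with earlier results of these data known, so no list was tested. Genes named besides the 9 are the 3 of smallest p in each pathway list, the 2 most abundant of a cell type list where needed, and the 3 nearest profiles of Abca1, Abcg1, Nr1h3 and Mylip, leaving out predicted genes; 3 genes that this rule names are not reported here. All list entries matched the table, 2 of them by gene ID where the table has an older symbol. Deviations from the group mean correlated at 0.212, -0.376 and 0.590 between same-numbered mice, and at -0.808 to 0.728 between differently numbered ones. These correlations cannot settle whether mice were paired. The labels name no pairs, so the numbers were not used as pairs.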

Additional observations from a re-analysis of the deposited data

How the results depend on the processing

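With no replicate block, 0 genes passed as higher and 1 as lower; with the replicate block, 0 and 0 did, and no call on the 9 genes changed. The count of lower genes was also 0 with no filter and under median-ratio scaling, and the count of higher genes was 1 with the macrophage score as a term. Leaving out 1 library gave 0 to 2 higher and 0 to 16 lower genes. Leaving out KO-labelled replicate 1 and WT-labelled replicate 2 together, chosen after seeing the data, gave 1 higher and 21 lower. Library weights gave far more calls, 2033 higher and 3973 lower by REML, which did not converge and put nearly all weight on WT-labelled replicate 1 (24002), and 1054 and 1461 when estimated gene by gene (13.5), chosen after seeing the data. With REML weights the log2 differences that passed were 0.93 for Abcg1, 0.40 for Nr1h3, -1.11 for Srebf1, 1.18 for Apoc2 and 0.74 for Pltp. Gene by gene, those of Abcg1 (0.92), Apoc2 (1.17) and Pltp (0.73) passed.

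Directions turned for 5 of the 9 genes. With the tumour-cell score as a term the differences were -0.014 for Abca1, -0.10 for Mylip, 0.38 for Srebf1 and 0.56 for Apoc1, and with the macrophage score -0.063, -0.12, 0.21 and 0.54. Apoc1 was at 0.026 under median-ratio scaling, 0.016 with gene-by-gene weights and 0.19 without KO-labelled replicate 1 and WT-labelled replicate 2, where Mylip was at -0.04. Leaving out 1 library gave -0.074 to 0.22 for Mylip, -0.039 to 0.11 for Nr1h2 and -0.48 to 0.37 for Apoc1, and, less the macrophage score, -0.19 to 0.0005 for Nr1h3 and -1.49 to 0.24 for Apoc1. Abcg1 kept 0.67 to 1.36, Apoc2 0.85 to 1.59 and Pltp 0.50 to 1.32. The cause was not tested.

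The median of LXR partners was 0.16 under quantile normalization. That of sterol ligand enzymes was -0.016 with the filter at 5, -0.049 under median-ratio scaling, 0.019 under quantile normalization, -0.26 and -0.25 with REML and gene-by-gene weights and -0.041 with the tumour-cell score. That of efflux and trafficking genes was 0.12 with the filter at 5, 0.032 under quantile normalization, 0.051 and 0.037 with the tumour-cell and macrophage scores, 0.01 without the 2 libraries named above and -0.087 to 0.14 with 1 left out. SREBP processing was at -0.12 with the macrophage score and -0.49 to -0.18 with 1 library left out. Lipoprotein receptors and Mylip partners were at -0.29 with a pseudocount of 0.1, -0.073 with the filter at 5, -0.13 under quantile normalization, -0.28 with REML weights, -0.30 by limma-voom, -0.10 and -0.12 with the scores and -0.32 to -0.11 with 1 library left out. Lipases and remodelling genes were at -0.13 with no filter, -0.14 with the filter at 5 and -0.15 to 0.23 with 1 left out.

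Quantile normalization moved the median of all genes to 0.03 and the share with a higher mean to 54.2%, and median-ratio scaling moved them to -0.01 and 48.2%, so small differences depend on the scaling. With 3 mice a group the exact permutation p cannot go below 0.1. Of the 9 genes, Apoc1 and Nr1h3 had the fewest reads, so counting error weighs most on them.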
